A study of Mus musculus with 4 samples.

Results

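The cytosolic ribosomal protein genes encode the structural proteins of the large and the small subunit of the ribosome. Their messages are among the most abundant of a growing cell, and many begin with a terminal oligopyrimidine tract, a run of C and T at the transcription start through which mTORC1 signalling controls their translation together. In B cells, ligation of the antigen receptor and of CD40 drives cell growth, and ribosome supply grows with it. Members were taken by gene name from the array annotation: Rpl or Rps followed by digits and at most 1 further letter, or Rplp0, Rplp1, Rplp2 or Rpsa. Kinases of the Rps6k family and pseudogenes were left out, and 1 gene left out by the rule is not analysed here. This gave 79 genes with 185 probes, of 29871 genes and 39429 probes on the array. Of these, 77 genes had a probe that cleared background on 2 or more of the 4 arrays and were tested (181 probes), among 15967 tested genes.

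The arrays measured total RNA of mouse spleen B cells, purified with magnetic beads and kept for 3 days in culture with 10 µg/mL anti-IgM and 10 µg/mL anti-CD40. Ackr4ko cells came from male Ackr4-deficient mice aged 73 and 71 days, and WT cells from male C57BL/6 mice aged 77 and 74 days. Ackr4 is an atypical chemokine receptor that removes chemokines without G protein signalling, and how the deficient line was made is not given in the sources used here. Each of 2 independent experiments with different donors holds 1 array per genotype, so n = 2 per genotype, and whether an array holds cells of several mice is not stated. All cells were stimulated, so no level refers to resting cells.

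A level below is log2 of a probe's signal over the 75th percentile of its array, and a difference is the Ackr4ko level minus the WT level. The 75th percentile was 1277 and 739.7 signal units on the Ackr4ko arrays and 916 and 913 on the WT arrays (experiments 1 and 2). No spot was saturated (0), and 6.24% of spots were flagged as outliers on the WT array of experiment 2 against at most 2.12% on the other arrays. Both probes for Ackr4 were below background on every array, so the target gene does not check the genotype labels. The authors' value table, a second version of the same arrays, contradicts the scanner files: each of its 4 columns matches the scanner file of the opposite genotype from that experiment (lowest r = 0.999 over 16260 probes) and 0 of 4 match their own best. Genotypes below are those of the scanner files, so "Ackr4ko" means labelled Ackr4ko, and all directions turn round if the value table is right. All 10 B cell markers were above background on all 4 arrays (log2 of the summed level 9.25 and 9.09 on Ackr4ko arrays, 9.52 and 9.35 on WT arrays). Of the other lists, 5 of 6 plasma cell markers were above background on all arrays (summed level 6.34 and 6.96 on Ackr4ko arrays, 5.91 and 6.45 on WT arrays), and of 8 erythroid and platelet markers 7 were below background, among them Hba-a1, Hbb-b1 and Pf4. T cell markers reached 1.76 and 2.28 on Ackr4ko arrays and 1.86 and 2.21 on WT arrays, with 6 of 7 tested and Cd8a below background. Macrophage markers reached 5.34 and 4.94 on Ackr4ko arrays and 5.67 and 5.73 on WT arrays, with Lyz2 and Cd14 below background, and dendritic cell markers 6.06 and 6.32 on Ackr4ko arrays and 6.10 and 6.06 on WT arrays. Of these last, Siglech alone had 5.78 and 6.15 on Ackr4ko arrays and 5.99 and 5.95 on WT arrays, and Itgax and Xcr1 were below background. Flt3, Zbtb46, Batf3 and Fscn1 were dimmer and higher on both Ackr4ko arrays (differences 1.07, 1.00, 2.74 and 1.87). Without a block 0 of the 4 were called, and Batf3 and Fscn1 were called when the experiment was a block. These 2 genes were above background on only 2 of the 4 arrays. Their levels were lowest on the WT arrays (-7.1 and -5.3 for Batf3, -5.7 and -5.1 for Fscn1). Their calls thus rest on WT values near background and are no support for a difference of that size. The part of these markers in the results was not tested. In such a mixed RNA sample, fewer cells of a type and less RNA per cell cannot be told apart.

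Start windows of 8 members are shown because the tract is the sequence feature these genes are known to share, and because the paralogs Rps27l and Rpl39l, set beside Rps27 and Rpl39, were among the members whose values stood apart. Each holds 10 bases before and 20 bases from the annotated start, 5′ to 3′ on the gene's strand, from RefSeq (GRCm38.p6). Capitals mark the longest run of C and T within the window.
Rps6 (chr4:86857348-86857377, minus strand): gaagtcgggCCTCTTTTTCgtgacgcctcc
Rplp2 (chr7:141447641-141447670, plus strand): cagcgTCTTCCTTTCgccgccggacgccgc
Rpl38 (chr11:114668570-114668599, plus strand): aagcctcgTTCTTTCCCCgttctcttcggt
Rps18 (chr17:33955646-33955675, minus strand): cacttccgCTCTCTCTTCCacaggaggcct
Rps27 (chr3:90213629-90213658, minus strand): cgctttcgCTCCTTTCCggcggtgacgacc
Rps27l (chr9:66946076-66946105, plus strand): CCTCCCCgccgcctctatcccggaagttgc
Rpl39 (chrX:37085203-37085232, minus strand): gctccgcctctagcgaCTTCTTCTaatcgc
Rpl39l (chr16:10170218-10170247, plus strand): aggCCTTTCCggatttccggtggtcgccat
Within the windows, the run is 10 bases in Rps6, Rplp2 and Rpl38, 11 in Rps18, 9 in Rps27, 8 in Rpl39 and 7 in Rps27l and Rpl39l. The Rps27l run begins at the first base shown, so its full length is not given by the window. In Rps27l it lies wholly before the annotated start and in Rpl39l it ends just before it, while in Rps27 and Rps18 it spans the start. Of 59 members found in the RefSeq table, 13 (22.0%) had a run of at least 5 C or T that begins with C exactly at the annotated start, against 3.01% of 27025 genes. Rps6, Rplp2, Rpl38, Rps18 and Rps27 are among these 13, so the windows shown are not typical of the members. A run of at least 8 beginning with C within 20 bases either side was found in 29 members (49.2%), against 14.5% of all genes. Rps27l was among these 29, although its window above holds no run of 8. Only the sense strand was searched, and a run in these letters is a description, not a measured start site.

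The members were at the bright end of the array. Their brightest probes had a median level of 7.90, with 71 of 77 above 7, and 130 of the 591 tested probes above 7 on the whole array belonged to them. All 77 were above background on all 4 arrays. Median signals of the members were 245185 and 229151 units on the Ackr4ko arrays and 207689 and 216795 units on the WT arrays. The highest member signal of each array, not always that of the same gene, was 353299 and 329963 units on the Ackr4ko arrays and 320813 and 316133 units on the WT arrays, where the brightest probe of each whole array read 363165, 338376, 320813 and 329797 units in the same order. Brightness depends on the probe as well as on the message, so the order of different genes' levels is not an order of expression.

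No member passed the test between genotypes. Limma called 0 of 77 members, 0 had an unadjusted p under 0.05, and the smallest adjusted p was 0.9996. Over all genes it called 2 of 15967 (0.0125%), and 732 had an unadjusted p under 0.05 (4.58%). A fit that blocked on the experiment called 532 genes (3.33%), 0 of them members, and 2 members, Rpl39l and Rps27l, had an unadjusted p under 0.05 in it, beside 1694 of all genes (10.6%). Unadjusted p-values under 0.05 were also found for 2 members without Ackr4ko replicate 1 (15% of all genes) and for 1 member without WT replicate 2 (5.27% of all genes). The median difference of the members was 0.027, beside 0.083 over all tested genes. In the scaled levels, the groups' values overlapped for all 77 members, whereas they did not overlap for 29% of all tested genes. Overlap was counted in this scaling only and depends on it. Without scaling between arrays, 65 of the 77 members were higher in both experiments and 12 were higher in experiment 1 and lower in experiment 2.

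What the members showed was 1 shift per experiment, of opposite sign. The median member level was 7.59 and 8.28 on the Ackr4ko arrays, against 7.83 and 7.89 on the WT arrays, so the lowest and the highest of the 4 medians were both Ackr4ko arrays. The median difference was -0.29 in experiment 1 and 0.35 in experiment 2. Of the 77, 72 were lower on the Ackr4ko array in experiment 1 and higher in experiment 2, a pattern that 34.5% of all tested genes had. Another 3 were higher in both (33% of all genes), 1 was lower in both (20.9%) and 1 was higher in experiment 1 and lower in experiment 2 (11.6%). With 1 array per genotype in an experiment, the difference between the experiments was not tested. These signs belong to this scaling: without scaling between arrays the medians were 0.19 and 0.042, and with quantile normalization -0.026 and -0.011.

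**Figure D1:**
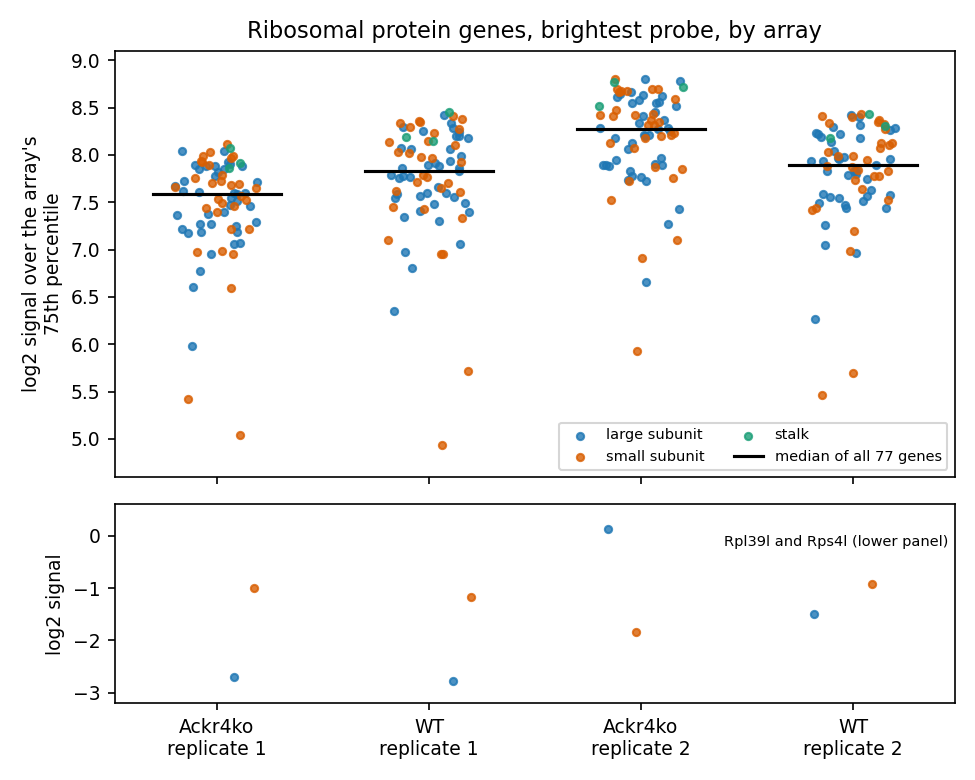
Level of the brightest probe of 77 ribosomal protein genes (log2 signal over the array's 75th percentile, y axis) on each array, 1 point per gene, coloured by subunit, with the median of all 77 as a bar. With this scaling the medians are 7.59 and 8.28 on the Ackr4ko arrays and 7.83 and 7.89 on the WT arrays, and Rpl39l and Rps4l, in the lower panel, lie far below the rest.

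The shift was tight across genes. In experiment 1, 68 of 77 members lay within 0.2 of the members' median, and in experiment 2 the number was 72, with 67 in both. Of all tested genes, 43.3% and 34.4% lay that close to their own median in the same experiments. The SD over all 77 members was 0.13 in experiment 1 and 0.28 in experiment 2, and over the 74 other than the paralogs 0.10 and 0.14, beside 0.51 and 0.64 over all genes. Probes of other genes between levels 7 and 8 had SDs of 0.18 and 0.15, so a narrow spread was shared by bright probes. The spread of the 4 spots of a member's probe had a median SD of 0.065. The 9 members outside that limit in experiment 1 were Rpl17, Rpl18, Rps2, Rps15, Rps18, Rps19 and the paralogs Rps27l, Rpl39l and Rps4l, and the 5 outside it in experiment 2 were Rps3, Rps15 and the same paralogs, all named here after their values were seen.

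**Figure D2:**
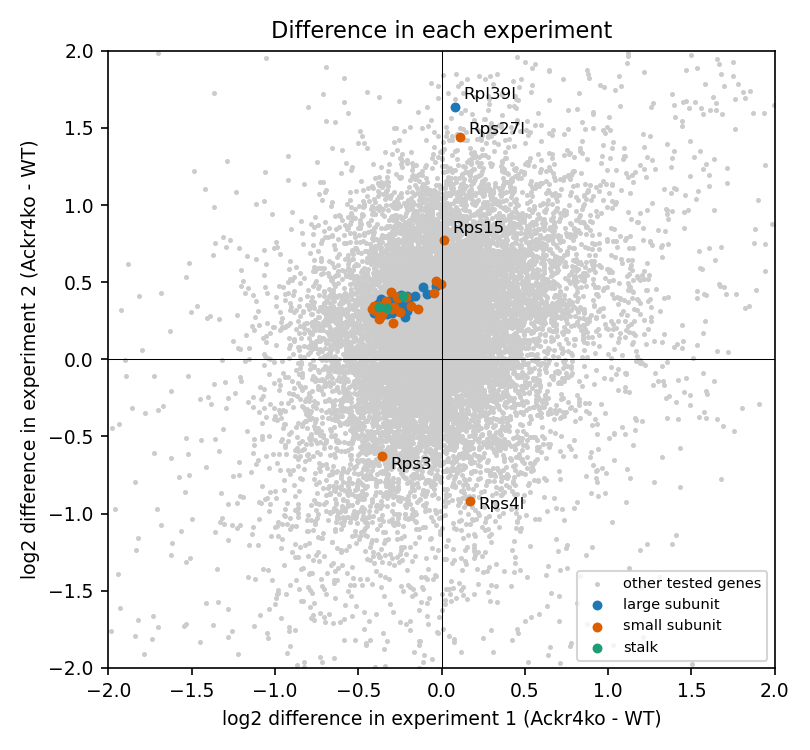
Difference between genotypes (log2, Ackr4ko minus WT) in experiment 1 (x axis) and experiment 2 (y axis), 1 point per tested gene, ribosomal protein genes in colour and other genes in grey (some lie outside the axes). With 75th percentile scaling the members form a compact group around -0.29 and 0.35 (0.19 and 0.042 without scaling), from which Rpl39l, Rps27l, Rps15, Rps3 and Rps4l stand apart.

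Both subunits showed the shift, which without scaling was above 0 in both experiments. The 41 large subunit genes had medians of -0.28 and 0.36 in experiments 1 and 2, and 41 of 41 were lower and then higher. The 30 small subunit genes had medians of -0.33 and 0.33, and 28 of 30 had the same pair of signs, the others being Rps15 and Rps3. The median difference over both experiments was 0.041 for the large and 0.0028 for the small subunit, each under the 0.083 of all genes.

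The stalk proteins form the flexible arm of the large subunit that recruits translation factors. Rplp0, the base of the stalk and the member with the highest mean level, had levels of 8.08 and 8.77 on the Ackr4ko arrays and 8.45 and 8.43 on the WT arrays. Rplp1 had 7.91 and 8.71 on the Ackr4ko arrays and 8.15 and 8.30 on the WT arrays. Rplp2 had 7.86 and 8.52 on the Ackr4ko arrays and 8.19 and 8.18 on the WT arrays. Unscaled signals of all 3 genes were higher on both Ackr4ko arrays than on both WT arrays. For Rplp0 these were 344926 and 323209 units on the Ackr4ko arrays and 320813 and 315435 units on the WT arrays. In the scaled levels, the Ackr4ko array was the lowest of the 4 in experiment 1 and the highest in experiment 2. This held for all 3 genes, and the groups overlapped in these levels. Their differences were -0.019 ± 0.36, 0.089 ± 0.37 and 0.0054 ± 0.35 in that order (SE, n = 2 per genotype; limma adjusted p = 0.9996 each).

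The other brightest members moved in the same way. Rpl10, which completes the large subunit late in its assembly, had levels of 8.04 and 8.78 on the Ackr4ko arrays and 8.42 on both WT arrays. Rpsa, a small subunit protein also known as the laminin receptor, had 8.11 and 8.80 on the Ackr4ko arrays and 8.37 and 8.41 on the WT arrays. In both genes the scaled WT levels differed by under 0.1 while the scaled Ackr4ko levels lay on either side of them. Unscaled signals of both genes were higher on both Ackr4ko arrays than on both WT arrays.

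A list of 10 members holds those known for roles outside the ribosome. With 75th percentile scaling, 9 of the 10 were lower in experiment 1 and higher in experiment 2, with list medians of -0.30 and 0.37. Rpl5 and Rpl11, which bind the p53 regulator MDM2 when ribosome assembly is disturbed, differed by -0.20 and 0.38 and by -0.37 and 0.32 in experiments 1 and 2. Rpl23 and Rps7, which also bind MDM2, differed by -0.30 and 0.30 and by -0.22 and 0.41. Rpl26, which promotes translation of p53 in human cells, differed by -0.30 and 0.38. All 5 lay within 0.2 of the members' median in both experiments.

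Rpl22, needed for lymphocyte development in mice, had levels of 7.40 and 8.18 on the Ackr4ko arrays and 7.76 and 7.83 on the WT arrays. Rpl13a, which represses translation of inflammatory messages in myeloid cells, had 7.27 and 7.89 on the Ackr4ko arrays and 7.55 and 7.52 on the WT arrays. These are values of its brightest probe, and its dimmer tested probes were higher in both experiments (0.17 and 0.79, and 0.19 and 0.76). With the mean over its probes, Rpl13a differed by 0.027 and 0.64. Rps19, mutated in human Diamond-Blackfan anaemia, had 7.40 and 8.07 on the Ackr4ko arrays and 7.45 and 7.64 on the WT arrays. In Rps19 the difference of experiment 1 was only -0.043, so this gene lay 0.25 above the members' median there.

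Rps6, the substrate of the S6 kinases downstream of mTORC1, had levels of 7.49 and 8.21 on the Ackr4ko arrays and 7.79 and 7.78 on the WT arrays, a difference of 0.066 ± 0.36 (SE, n = 2 per genotype; limma adjusted p = 0.9996). The probe shown first below gave these values, with differences of -0.30 and 0.44, and another bright probe further upstream gave -0.066 and 0.66. Both are shown because they read separate parts of 1 message. Positions here and below are those in the array files (mm9), and all probe sequences are in lower case.
Rps6 brightest probe (chr4:86500748-86500807, minus strand): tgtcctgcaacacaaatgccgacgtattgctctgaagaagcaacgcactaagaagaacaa
Rps6 other bright probe (chr4:86501867-86502058, minus strand): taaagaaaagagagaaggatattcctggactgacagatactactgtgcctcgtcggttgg

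Rps3, a small subunit protein also known as a DNA repair enzyme and a partner of NF-kappaB, was the only member lower on the Ackr4ko array in both experiments. Its levels were 6.60 and 7.11 on the Ackr4ko arrays and 6.96 and 7.74 on the WT arrays, a difference of -0.49 ± 0.39 (SE, n = 2 per genotype; limma adjusted p = 0.9996). The WT array of experiment 2 was the high one, the groups overlapped, and without that array the difference was -0.11. This sign belonged to 1 probe: in experiment 2 the brightest probe gave -0.63, another bright probe of the gene 0.37 and a dim one 0.61. With the mean over its 3 probes, Rps3 differed by -0.27 in experiment 1 and 0.12 in experiment 2, and without scaling between arrays the brightest probe gave 0.12 and -0.93.

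Rps15, a protein of the head of the small subunit, had levels of 6.97 and 7.76 on the Ackr4ko arrays and 6.96 and 6.99 on the WT arrays. The Ackr4ko array of experiment 2 was higher than the other 3, which lay within 0.1 of each other, and the difference was 0.39 ± 0.37 (SE, n = 2 per genotype; limma adjusted p = 0.9996). Both probes of the gene gave this: 0.017 and 0.77 for the brightest, and -0.018 and 0.75 for the other, in experiments 1 and 2. They are shown because, by brightest probe in the scaled levels, no other of the 30 small subunit genes was higher in both experiments. The other Rps15 probe was just below 0 in experiment 1, so its signs were those of most small subunit genes. The brightest probe stayed positive in both experiments under quantile normalization (0.20 and 0.40), under cyclic loess (0.16 and 0.40) and without scaling (0.50 and 0.47).
Rps15 brightest probe (chr10:79756716-79756775, plus strand): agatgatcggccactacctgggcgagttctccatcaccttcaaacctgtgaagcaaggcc
Rps15 other probe (chr10:79755554-79756394, plus strand): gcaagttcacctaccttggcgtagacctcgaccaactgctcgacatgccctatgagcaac

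The tested paralogs lay farthest from the members' median in experiment 2. Rps27l, a paralog of Rps27 that p53 induces, had levels of 5.04 and 6.91 on the Ackr4ko arrays and 4.93 and 5.47 on the WT arrays. The Ackr4ko array of experiment 2 was well above the other 3, the groups overlapped, and the difference was 0.77 ± 0.57 (SE, n = 2 per genotype; limma adjusted p = 0.9996). The sign was the same in both experiments under quantile normalization (0.18 and 1.02), cyclic loess (0.22 and 1.12) and no scaling (0.59 and 1.14). Rps27 itself, whose brightest probe gave -0.36 and 0.32, stayed with the other members. The probe of Rps27l and 1 of the 4 Rps27 probes are shown because the array files place the Rps27 probes on chromosome 9, whereas RefSeq has that gene on chromosome 3.
Rps27l probe (chr9:66795486-66797176, plus strand, a position longer than the 60-base probe): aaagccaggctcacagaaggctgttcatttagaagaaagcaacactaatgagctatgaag
Rps27 probe (chr9:114891672-114891731, minus strand): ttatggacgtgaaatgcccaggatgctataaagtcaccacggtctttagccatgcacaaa

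Rpl39l, the paralog of Rpl39 known for its expression in mouse testis, was dim, with levels of -2.70 and 0.13 on the Ackr4ko arrays and -2.78 and -1.50 on the WT arrays. It was high only on the Ackr4ko array of experiment 2, where it differed by 1.63, and the difference over both experiments was 0.86 ± 0.81 (SE, n = 2 per genotype; limma adjusted p = 0.9996). Its sign in experiment 1 was positive (0.082) but turned with another background correction (-0.07). Rpl39 gave -0.24 and 0.37 and stayed with the other members. Rps4l, a paralog of Rps4x, had levels of -0.99 and -1.84 on the Ackr4ko arrays and -1.17 and -0.92 on the WT arrays, and was the only member higher in experiment 1 and lower in experiment 2 (0.17 and -0.92). Without Ackr4ko replicate 2, the remaining Ackr4ko array set against both WT arrays gave -0.16 for Rps27l and -0.56 for Rpl39l, while within experiment 1, which does not hold that array, they differed by 0.11 and 0.082. Rpl3l, known from striated muscle, and Rpl10l, known from testis, were not well above background on any array and were not tested.

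Subunits with other names gave the same pair of values. Fau, whose protein is processed to a small subunit protein, differed by -0.35 and 0.32, and Rack1, a signalling scaffold on the small subunit, by -0.34 and 0.28. Both were lower in experiment 1 and higher in experiment 2 with 75th percentile scaling, and neither was called. Of 3 paralogs outside the naming pattern, Rpl22l1 and Rpl36al gave -0.16 and 0.42 and -0.16 and 0.46, and Rpl7l1 gave 0.17 and 0.77.

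Probes of 1 gene mostly agreed. Of the 77 members, 58 had several tested probes, up to 7, and the median range over a gene's probes was 0.16 in experiment 1 and 0.075 in experiment 2. In 30 of the 58 the range was at most 0.2 in both experiments. The 152 member probes with a level above 6 had medians of -0.30 and 0.35, with 146 lower in experiment 1 and 151 higher in experiment 2. The 29 dimmer probes, of 25 genes, had medians of 0.098 and 0.37, and 17 of the 29 were higher in experiment 1. In the scaled levels, bright and dim member probes thus had medians of opposite sign in experiment 1, while in experiment 2 both medians were positive. The opposite signs in experiment 1 belong to this scaling. Without scaling between arrays, the medians of member probes in experiment 1 were positive at every brightness. They were, for example, 0.53 between levels 5 and 6 and 0.20 between levels 7 and 8.

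Wide ranges were found in Rps3, Rpl21, Rpl22 and Rps6. Rps3 spanned 1.24 in experiment 2, with the 3 values given above. Rpl21, a large subunit protein, spanned 0.86 in experiment 1 over 6 probes, of which the dimmest gave 0.41. Rpl22 spanned 0.82 in experiment 1, where its brightest probe gave -0.36 and its dim probe 0.45. Rps6 spanned 0.72 in experiment 2, from -0.056 for a dim probe to 0.66.

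**Figure D3:**
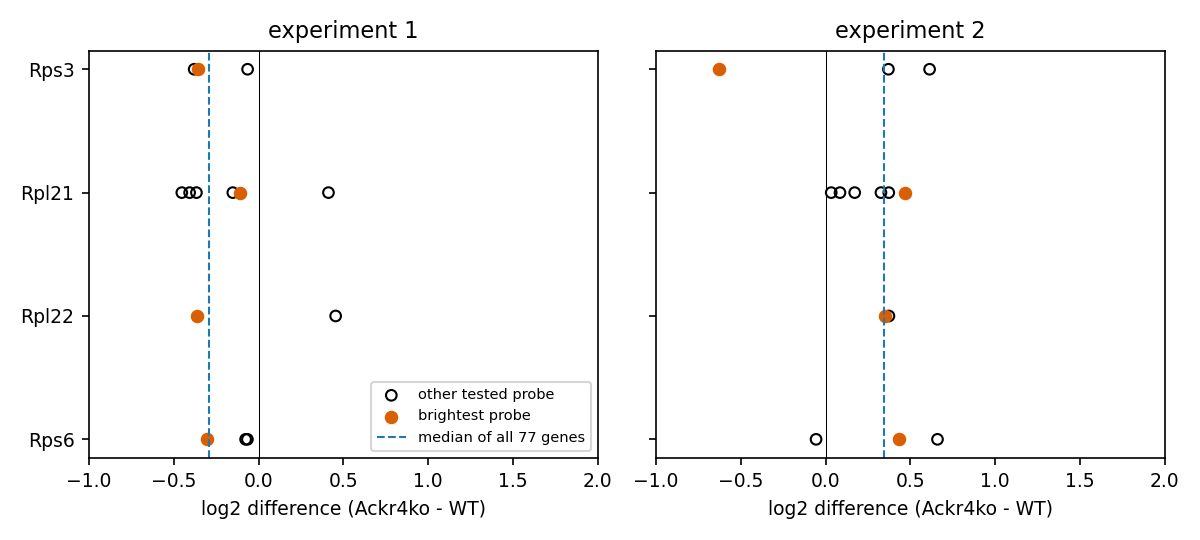
Difference between genotypes (log2, Ackr4ko minus WT, x axes) of every tested probe of 4 genes with a wide range over probes (Rps3, Rpl21, Rpl22 and Rps6), in experiment 1 and experiment 2, with the brightest probe filled and the median of the 77 members as a dashed line. In the scaled levels, bright Rps3 probes lie on both sides of 0 in experiment 2, and 1 dim probe each of Rpl21 and Rpl22 lies above 0 in experiment 1.

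The array also carries probes for near-identical copies of these genes. Of 184 member probes with a position to compare, 10, of 5 genes, lie on another chromosome than the RefSeq gene, and 9 of the 10 were lower in experiment 1 and higher in experiment 2. Among overlapping probes of 1 gene, 17 pairs in 13 genes share at least 30 bases of position, and 15 of these pairs differ at up to 6 bases. Their differences between genotypes were nonetheless close, with a median gap of 0.046 in experiment 1 and 0.052 in experiment 2 and a largest gap of 0.12 and 0.16. The Rplp0 pair is shown as an example, with capitals at the 5 bases that differ over the 53 shared.
Rplp0 brightest probe (chr5:116013404-116013463, plus strand): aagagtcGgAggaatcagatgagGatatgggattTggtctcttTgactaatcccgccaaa
Rplp0 other probe (chr5:116013397-116013456, plus strand): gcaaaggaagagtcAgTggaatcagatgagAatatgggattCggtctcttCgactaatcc
The first of these gave -0.38 and 0.34 and the other -0.25 and 0.37 in experiments 1 and 2. For such members, messages of the gene and of a transcribed copy cannot be told apart.

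The shift was set beside probes of similar brightness from other genes. Between levels 7 and 8, the 92 member probes had medians of -0.28 (SD 0.11) and 0.36 (SD 0.14), and the 393 other probes -0.22 (SD 0.18) and 0.36 (SD 0.15). Above 8, the 38 member probes had -0.35 and 0.34, and the 68 other probes -0.32 and 0.35. Between levels 6 and 7, the 22 member probes had -0.29 and 0.34, and the 396 other probes -0.12 and 0.36. Between levels 2 and 4, the 3040 other probes had -0.037 (SD 0.39) and 0.29 (SD 0.51). Above a level of 7, the medians of other genes' probes were within 0.1 of the members' in both experiments.

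**Figure D4:**
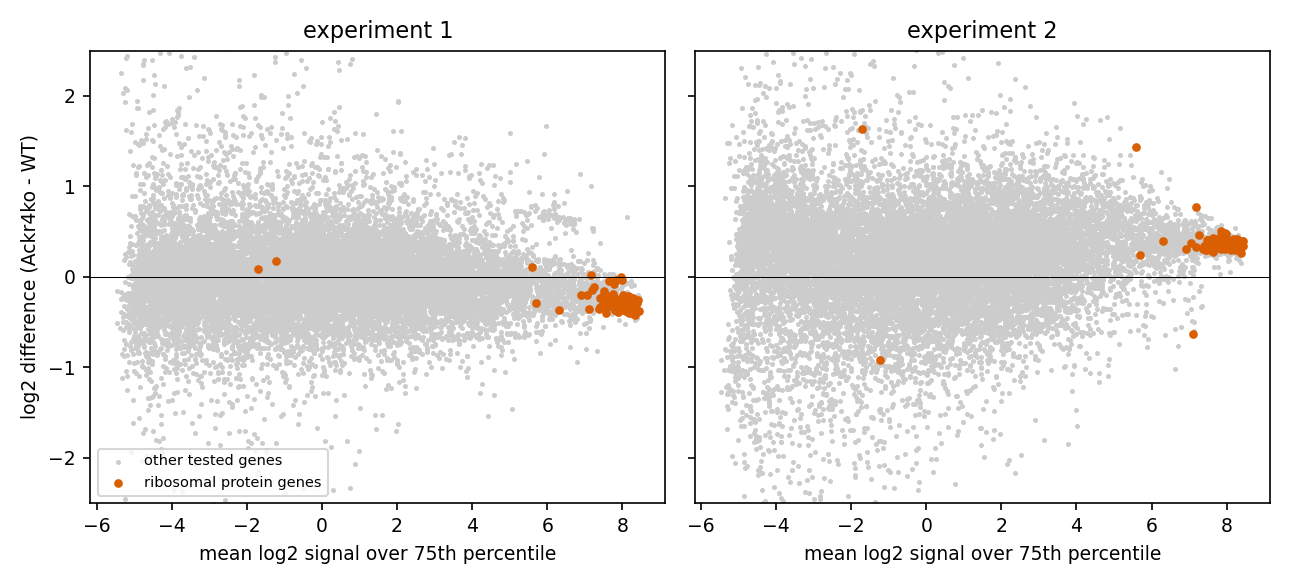
Difference between genotypes (log2, Ackr4ko minus WT, y axes) against the mean level over the 4 arrays (x axes) in experiment 1 and experiment 2, 1 point per tested gene, with ribosomal protein genes in colour (some other genes lie outside the axes). With 75th percentile scaling, members and other genes at the bright end lie mostly below 0 in experiment 1 and above 0 in experiment 2, and without scaling the members' medians are 0.19 and 0.042.

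The 75th percentiles that scaled the arrays differed in the direction opposite to the shift. The 75th percentile of the Ackr4ko array was 0.48 higher on the log2 scale than that of the WT array in experiment 1, and lower in experiment 2 (-0.30). Without any scaling between arrays, the member medians were 0.19 and 0.042, both above 0, and 65 of 77 members were higher in both experiments and 0 lower in both, while all tested genes had medians of 0.44 and -0.069, beside -0.044 and 0.23 in the main scaling. Quantile normalization gave member medians of -0.026 and -0.011, with 37 members lower in both experiments (28% of all genes) and 21 higher in both (29.8%). Cyclic loess gave -0.13 and -0.044, while scaling by the median of probes detected on every array (-0.28 and 0.20) and another background correction (-0.26 and 0.33) kept the opposite signs. Limma called 0 members under each of these settings, and the differences of the members within an experiment kept their spread (SD 0.11 and 0.27 under quantile normalization, 0.13 and 0.28 in the main scaling).

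**Figure D5:**
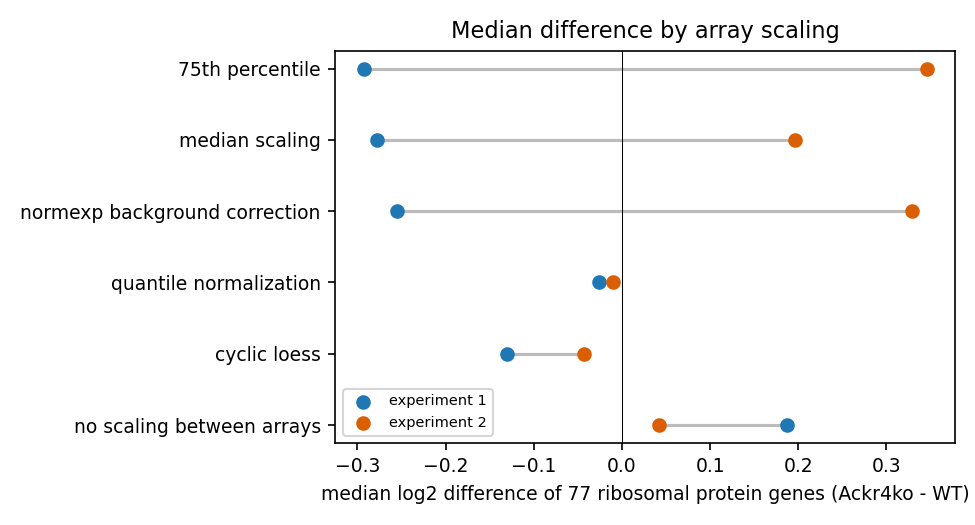
Median difference of the 77 ribosomal protein genes (log2, Ackr4ko minus WT, x axis) in experiment 1 and experiment 2 under 6 settings (rows). The medians are -0.29 and 0.35 with the 75th percentile, -0.026 and -0.011 with quantile normalization, and 0.19 and 0.042 with no scaling.

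Genes that act with the ribosome were read the same way. Of 16 translation factors and related genes whose messages carry the tract, 0 were called, with medians of -0.11 and 0.35, 10 of them lower in experiment 1 and higher in experiment 2 and 6 higher in both. Tpt1, the translationally controlled tumour protein, gave -0.42 and 0.33, Eef1a1, which brings aminoacyl-tRNA to the ribosome, -0.30 and 0.29, and Eef1b2, its exchange factor, -0.29 and 0.33. Npm1, a nucleolar chaperone of ribosome assembly, gave 0.093 and 0.57, and Pabpc1, the poly(A) binding protein, 0.18 and 0.47. Among members with a run of C and T at the start, 13 tested genes had medians of -0.30 and 0.34, and the 44 without one had -0.29 and 0.37.

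Of 8 genes of the mTORC1 axis, 0 were called without a block and 1 in the blocked fit. That gene, Eif4ebp1, encodes a repressor of cap-dependent translation that mTORC1 inactivates. Its levels were 3.97 and 4.79 on the Ackr4ko arrays and 2.43 and 3.44 on the WT arrays. Both Ackr4ko arrays lay above both WT arrays, and the difference was 1.45 ± 0.45 (SE, n = 2 per genotype; limma adjusted p = 0.69, and 0.0019 in the blocked fit, where every gene has an SE of 0.35). Mtor itself gave 0.15 and 0.55, and Larp1, which binds the tract, -0.32 and -0.059.

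The mitochondrial ribosome is built from a separate set of nuclear genes. All 78 of its Mrpl and Mrps genes on the array were tested and 0 were called, with medians of -0.074 in experiment 1 and 0.67 in experiment 2. Of the 78, 46 were lower and then higher and 30 were higher in both experiments. The largest differences of the same sign in both were those of Mrpl53 (0.75), Mrpl19 (0.71) and Mrps6 (0.66). Their median level was 2.90 and 3.77 on the Ackr4ko arrays and 2.95 and 3.16 on the WT arrays, which is outside the bright range of the cytosolic genes.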

How the data were processed

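The deposited scanner files hold 1-colour (Cy3) spot intensity from Agilent Feature Extraction 10.7.3.1, per the file headers and the submitters' processing notes, background-subtracted within the array. The authors' value table holds intensity with identical quantiles in every column, and how it was made is not given in the sources used here. Control spots and outlier-flagged spots were left out and the 4 spots of a probe averaged on the log2 scale, minus the log2 of each array's 75th percentile. Probes with at least 50% of spots well above background on at least 2 arrays were tested, and the brightest tested probe stood for a gene. The comparison of Ackr4ko with WT used limma 3.58.1 (R 4.3.3; functions lmFit and eBayes) without a block over all 15967 tested genes, with two-sided p-values, Benjamini-Hochberg adjustment and a threshold of 0.05, after tests on simulated data. Replicate numbers mark the 2 experiments of the series description, which pairs the arrays, and deviations of arrays of the same experiment correlated at 0.42. All arrays lay on 1 slide, so the slide could not be used as a batch. Probes were named through RefSeq accession (28582), symbol (3055) or synonym (222), and the members by the array's name.

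Members and gene lists were chosen with earlier results of these data known. Named members were the stalk genes, paralogs, genes with roles outside the ribosome, those with the largest difference of the same sign in both experiments, the 5 with the widest range over probes, and the 3 brightest and 3 dimmest. Some genes that this rule selects are not reported here. With 2 arrays per genotype an exact permutation test cannot give a p under 0.333, and the number of arrays limits the precision. P-values measure the spread between these arrays. Alternatives tried were quantile, median and cyclic loess scaling, normexp with an offset of 50, other filters, the mean over probes, the block, leaving out each array, the value table, and no scaling, the last chosen after seeing the data.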

Additional observations from a re-analysis of the deposited data

Results flagged for a closer look

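The Ackr4ko minus WT difference of the ribosomal protein genes had opposite signs in the 2 experiments with 75th percentile scaling. The median over all 77 tested members was -0.29 in experiment 1 and 0.35 in experiment 2. Over the 41 large subunit genes it was -0.28 and 0.36, and over the 30 small subunit genes -0.33 and 0.33. In all, 72 members were lower on the Ackr4ko array in experiment 1 and higher in experiment 2. With 1 array per genotype in each experiment, the difference between the experiments was not tested. The medians were 0.19 and 0.042 without scaling, -0.026 and -0.011 with quantile normalization and -0.13 and -0.044 with cyclic loess, and the 72 members became 0, 8 and 12 under these settings. The 75th percentiles that scaled the arrays differed in the other direction (0.48 and -0.30), and other probes above a level of 8 had medians of -0.32 and 0.35.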

How the results depend on the processing

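Members called by limma stayed at 0 under every setting tried, and the number with an unadjusted p under 0.05 was 0 in the main setting, 2 with the replicate block (10.6% of all genes), 2 without Ackr4ko replicate 1 (15% of all genes) and 1 without WT replicate 2 (5.27% of all genes). Over all genes, the 2 calls became 1 under quantile normalization, cyclic loess, the value table and no scaling, 19 with normexp, 0 with probes above background on all 4 arrays (526 at an unadjusted p under 0.05), 0 with no filter (296 at an unadjusted p under 0.05), 532 with the replicate block, and 1 to 122 when 1 array was left out. Members lower in both experiments, 1 in the main setting, numbered 37 under quantile normalization, 54 under cyclic loess, 20 in the value table, 0 without scaling, 3 without a filter and 0 with the mean over probes. Members higher in both, 3 in the main setting, numbered 21 under quantile normalization, 9 under cyclic loess, 31 in the value table and 65 without scaling. The value table's counts use its own labels, and turned to those of the scanner files they are 31 lower and 20 higher. Leaving out 1 array leaves 1 experiment without a difference, so these counts have no such value. The median difference of the members, 0.027, ranged from -0.32 without Ackr4ko replicate 2 to 0.36 without Ackr4ko replicate 1, and leaving out WT replicate 1 gave 0.0079 and WT replicate 2 gave 0.045. In the value table, with its own labels, Rps27l differed by -0.60, Rpl39l by -0.80, Rps15 by -0.31, Rps3 by 0.59 and Rps4l by 0.42, each opposite in sign to the scanner files. Of 294 values of 21 named members under these alternatives, 280 stayed within the spread between replicates and 14 moved. That spread is wide (SD 0.45 between experiments for the member median) beside the median member difference of 0.027. Staying within it is therefore a weak check and does not show that a gene's value is stable. The block changed no call of a member. Low signal left Rpl3l and Rpl10l untested, and the sign of the dim Rpl39l in experiment 1 turned with normexp (0.082 and -0.07).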
